A study of Sus scrofa with 10 samples.

Results

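Kidney and liver were compared in pigs of the Northeast Min breed that were 60 days old, with 1 RNA-seq library from each organ. The labels name no treatment or sex, and do not say whether both organs came from the same animal. The series holds 10 libraries of total RNA, from 9 single tissues and a mixture of tissues, and its title names gene annotation of the pig as the purpose. Of the 25880 genes in the deposited table, the 12476 that reached 1 FPKM in kidney or liver were kept. FPKM counts fragments scaled to transcript length and library total, and this unit was inferred, since the table does not name it. The closest genes inside that limit were SORCS1 (0.202 in kidney, 1.000 in liver) and MKI67 (1.002 and 0.259), and an unnamed model at 0.999978 in kidney fell just outside. For each gene kept, log2(FPKM + 1) in liver was subtracted from that in kidney. A positive difference means more transcript in kidney. With 1 library per organ there is no replicate check, no p-value and no error, and every difference is the distance between these libraries.

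Both organs handle nutrients and foreign compounds, in different ways. The hepatocyte makes plasma proteins, lipoproteins, bile acids and urea, stores glycogen, and oxidises and conjugates drugs. The proximal tubule of the kidney recovers sugars, amino acids and peptides from the filtrate, secretes organic anions and cations, and makes glucose from lactate and glutamine. Many reactions are carried out in both organs, often by a different member of the same gene family.

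The libraries bore the markers of their labelled organs. UMOD, a thick ascending limb gene whose product is uromodulin (ENSSSCG00000007859, chromosome 3, 25473162 to 25492276), stood at 2481 FPKM in kidney and 0.0408 in liver. ALB, for the albumin of plasma (model ENSSSCG00000008948, chromosome 8, 69531487 to 69681699), stood at 0.146 in kidney and 30453 in liver, although its model overlaps AFP. Coordinates are those of the deposited table on Sscrofa11.1. PCK1, the cytosolic carboxykinase of gluconeogenesis (ENSSSCG00000007507, chromosome 17, 57930356 to 57938817), was at 1524 in kidney and 344 in liver. ASS1, the urea cycle enzyme that also makes arginine in kidney (ENSSSCG00000005701, chromosome 1, 270531589 to 270586378), was at 1745 and 590.0. PCK1 and ASS1 were therefore abundant in both organs, while UMOD and ALB were each high in 1 organ alone. The marker lists were chosen with earlier results of these data known, so their counts are no independent check of the organ labels. 18 of 18 proximal tubule genes differed by 2 or more towards kidney. So did 14 of 16 thick limb and distal tubule genes, 11 of 13 collecting duct genes and 7 of 8 podocyte genes. 26 of 28 compared plasma protein genes of hepatocytes differed by 2 or more towards liver. The exceptions were KNG1, for kininogen (153 and 463), and F9, for clotting factor IX (54.9 and 89.5). SERPINA1, for alpha-1 antitrypsin, was not compared, since its model was listed at 0.550 in liver and 0 in kidney. That is the value of the named model alone. Whether reads of the gene fell in other models was not tested. In bulk tissue, fewer cells of a type and less RNA per cell cannot be told apart.

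The liver library was dominated by a few transcripts. Its 10 highest genes held 24.9% of all FPKM and its 100 highest 50.7%, against 9.36% and 25.2% in kidney. FPKM is relative to the total of a library, so the value of each gene depends on the others. The median difference over the 12476 genes was 0.87 towards kidney, with a robust SD of 0.79. A gene was called when its difference reached 2 either way, a 4-fold change of FPKM + 1. By this rule 1376 genes (11.0%) were called towards kidney and 478 (3.83%) towards liver. When the median of 0.87 was subtracted from every difference, 540 genes (4.33%) were called towards kidney and 856 (6.86%) towards liver. The share of calls that favoured kidney thus moved from 74.2% to 38.7%. Counts after this centring are given beside the deposited ones for most lists, and not for the comparison with other tissues. By construction the centring can only add calls towards liver and remove calls towards kidney. In the counts that follow, a member had to pass the 1 FPKM filter to be compared, and a member that passed in 1 organ alone was bound to differ. The lists were also chosen with earlier results of these data known, so the counts and shares hold for the chosen members.

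Members of the metabolic lists were called in both directions. 30 lists covering amino acid, sugar, drug and lipid metabolism named 674 genes, of which 613 had a gene model of their own and 579 were compared. Of these, 104 were called towards kidney (17.96%, against 11.0% of all genes) and 109 towards liver (18.8%, against 3.83%). The compared amino acid genes numbered 153, with 37 called towards kidney and 19 towards liver, and a median of 0.35. Sugar genes were called towards kidney in 23 cases of 112 and towards liver in 7, with a median of 0.87. For drug genes the counts were 21 and 30 of 109, with a median of -0.38. Lipid genes were called towards kidney in 23 cases and towards liver in 53 of 205, with a median of -0.31. In that order, the kidney shares of the themes were 24.2%, 20.5%, 19.3% and 11.2%, against 11.0% of all genes. Their liver shares were 12.4%, 6.25%, 27.5% and 25.9%, against 3.83%. The median over all genes was 0.87, so the sugar genes lay at the level of all genes and the amino acid, drug and lipid medians lay below it, towards liver. After centring, the calls towards kidney and liver were 20 and 29 for amino acids, 10 and 13 for sugars, 12 and 43 for drugs, and 14 and 71 for lipids. The lipid genes held 12.4% of the liver library and 2.69% of the kidney library, and the sugar genes 1.97% and 4.24%. Without the lipoprotein list, the lipid genes held 2.94% of the liver library and 2.39% of the kidney library.

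**Figure D1:**
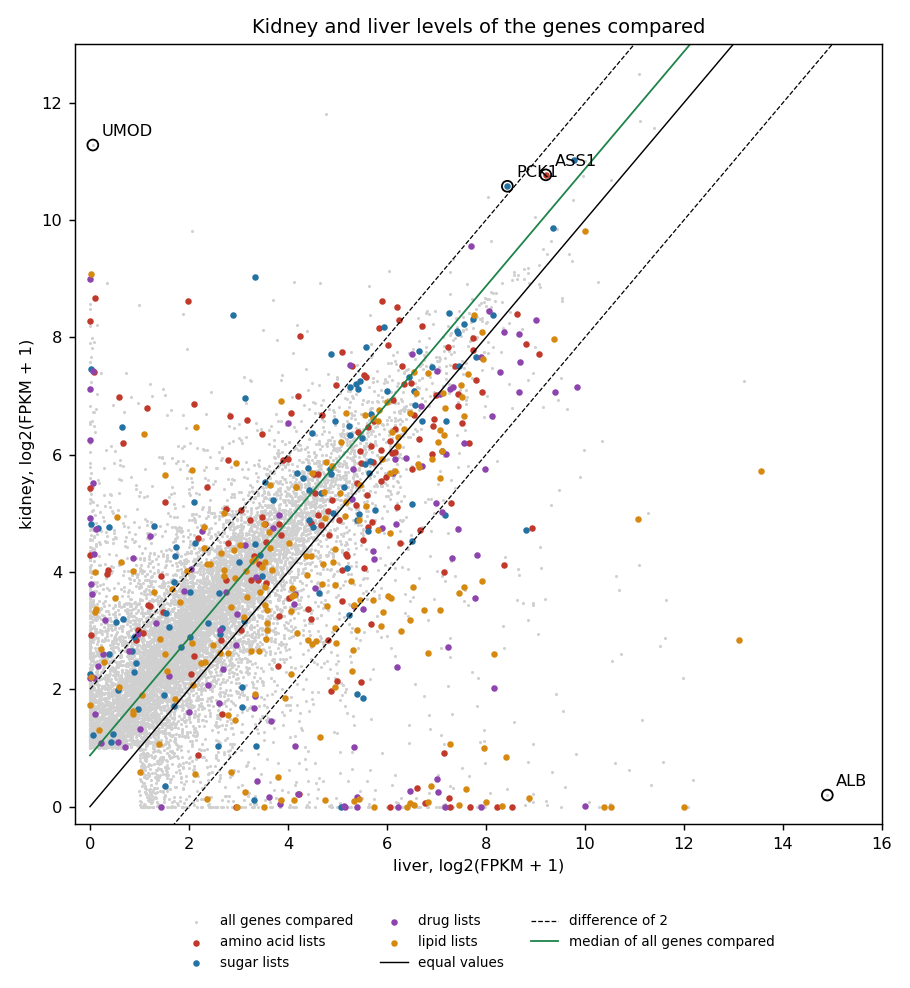
Levels of the 12476 genes compared, with liver on the horizontal and kidney on the vertical axis, both as log2(FPKM + 1), 1 point per gene and 1 library per organ. Coloured points are members of the metabolic lists, circles mark the 4 marker genes, dashed lines a difference of 2, and the green line the median difference of 0.87, above the line of equal values.

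**Figure D2:**
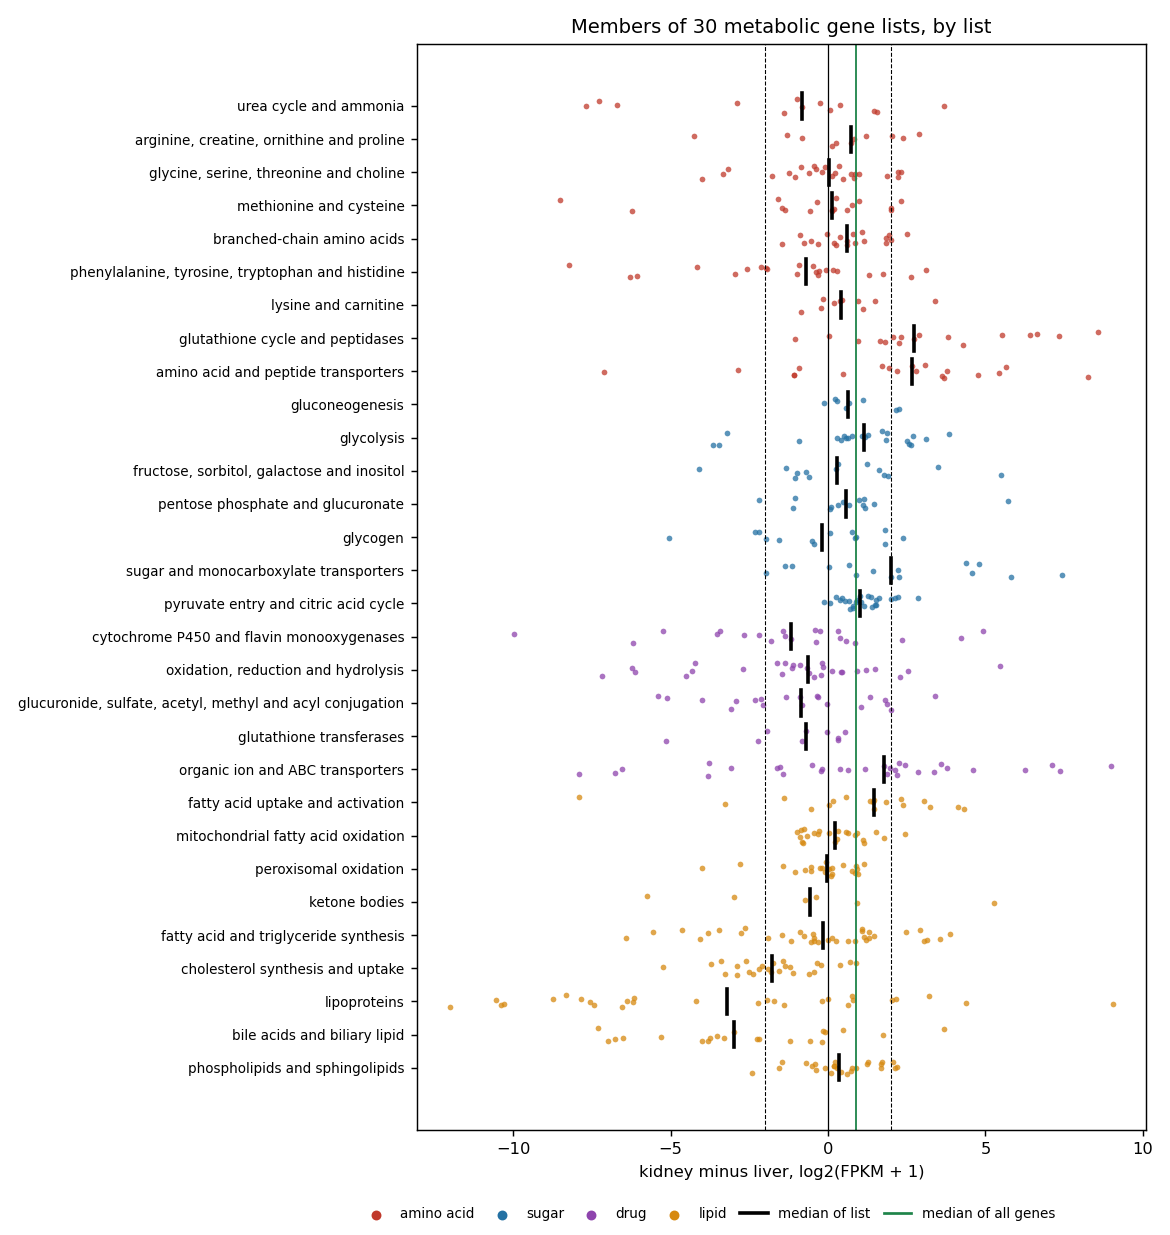
Difference of each compared list member (kidney minus liver, log2(FPKM + 1)) in 30 metabolic lists, with 1 point per gene, black bars at list medians, dashed lines at 2 and -2, and a green line at the median of all genes. Peptidases and amino acid transporters have medians right of that line, while those of lipoproteins, bile acids and cholesterol synthesis lie left of it.

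The urea cycle was divided step by step. CPS1, which makes carbamoyl phosphate from ammonia, stood at 205 FPKM in liver and was listed at 0 in kidney. OTC, the next enzyme, stood at 154 in liver and at 0 in kidney, and ARG1, which releases urea from arginine, at 108 in liver and 0.0379 in kidney. CPS1, OTC and ARG1 thus had high values in liver alone, whereas the middle steps, ASS1 and ASL, were present in both organs. ASS1 was at 1745 in kidney and 590.0 in liver, a difference of 1.56. ASL, which splits argininosuccinate into arginine, was at 34.1 and 40.5. ARG2, the mitochondrial arginase, was at 29.5 and 10.04, so an arginase transcript was present in kidney too. The mitochondrial ornithine carrier SLC25A15 lay at 30.5 and 23.2. GLS2, a glutaminase gene, was called towards liver (2.93 in kidney, 28.2 in liver). GLUD1, which frees ammonia from glutamate, was near equal (220.2 and 211), and GLUL, for glutamine synthetase, stood at 22.4 and 44.9. In all, 1 of 13 genes of this list was called towards kidney (7.69%, against 11.0% of all genes). Towards liver there were 4 (30.8%, against 3.83%). After centring the counts were 1 and 5. The models of GLS2 and ARG2 overlap SPRYD4 and VTI1B.

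Creatine synthesis was shared between the organs. GATM, whose product guanidinoacetate is made in kidney and passes to the liver, stood at 254 FPKM in kidney and 213 in liver. GAMT, which methylates guanidinoacetate to creatine, stood at 16.3 in kidney and 329.9 in liver, a difference of -4.26, in a model that overlaps NDUFS7. OAT, for ornithine aminotransferase (80.6 and 10.05), and ALDH18A1, which starts proline synthesis (22.8 and 3.53), were called towards kidney. PRODH2, for hydroxyproline dehydrogenase, was at 181 in kidney and 77.5 in liver. HOGA1, which acts later in hydroxyproline breakdown, was called towards kidney as well (144 and 30.4). The model of HOGA1 overlaps ANKRD2.

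Methionine and glycine genes had as many calls towards kidney as towards liver. Of 17 methionine and cysteine genes 2 were called towards kidney and 2 towards liver (0 and 5 after centring). Of 24 glycine, serine, threonine and choline genes the counts were 3 and 3 (0 and 5 after centring). The shares towards kidney were near the 11.0% of all genes. Those towards liver (11.8% and 12.5%) were above the 3.83% of all genes. MAT1A, the adult liver form of methionine adenosyltransferase, stood at 368 FPKM in liver and 0 in kidney, while MAT2A, the form of other tissues, stood at 101 in kidney and 24.8 in liver. CDO1, which commits cysteine to taurine and sulfate, was at 141 in liver and 0.878 in kidney. The transsulfuration enzyme CTH did not show this division, at 101 and 92.98. Betaine-dependent remethylation of homocysteine was abundant in both organs, with BHMT at 210.3 in kidney and 539 in liver and BHMT2 at 366 and 73.1. The glycine enzymes GLDC (0.166 and 17.7), GNMT (3.36 and 43.6) and SHMT1 (14.9 and 142) were called towards liver. DAO, the D-amino acid oxidase, was called towards kidney (285 and 56.6), and so was HAO2 (182 and 38.4), whereas HAO1, the glycolate oxidase, was at 75.9 and 99.04. Of the serine synthesis genes, PSAT1 was at 181 and 164 and PHGDH at 69.6 and 50.1. BHMT2, GNMT, SHMT1, HAO2, DAO and HOGA1 have models that overlap another named gene, which for BHMT2 is DMGDH.

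Genes that break down aromatic amino acids and histidine were called more often towards liver, while HGD and FAH were abundant in kidney too. 7 of 22 genes were called towards liver (31.8%, against 3.83% of all genes) and 2 towards kidney (9.09%, against 11.0%). After centring the counts were 9 and 1. TDO2, which opens the tryptophan ring, stood at 297 FPKM in liver and 0 in kidney. TAT, the tyrosine aminotransferase, stood at 96.00 and 0.251, and UROC1, of histidine breakdown, at 65.7 in liver and 0 in kidney. HPD, which follows TAT, was called towards liver (488 in liver, 26.03 in kidney). By contrast, HGD, a middle step of tyrosine breakdown, was at 64.6 in kidney and 67.4 in liver, and FAH, the last enzyme of the pathway, at 96.6 and 122. The kidney calls were DDC, which makes dopamine from L-DOPA (213 and 33.3), and ACMSD, which diverts tryptophan carbon away from NAD synthesis (58.8 and 5.88).

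Branched-chain and lysine genes were called towards kidney about as often as all genes (11.0%). Of 20 branched-chain genes 2 were called towards kidney and 0 towards liver, and after centring 0 and 1. Of 10 lysine and carnitine genes 1 was called towards kidney and 0 towards liver. BCAT2, the mitochondrial aminotransferase that starts the pathway, was at 14.3 FPKM in kidney and 1.72 in liver, and BCAT1 at 6.18 and 0.897. The dehydrogenase subunit BCKDHB, at the next step, stood at 73.9 and 65.5. BBOX1, the last enzyme of carnitine synthesis, was the largest difference of the lysine list (95.5 in kidney, 8.06 in liver, difference 3.41).

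Peptidases of the brush border were among the largest differences towards kidney. Of 17 compared genes of the glutathione cycle and peptidases, 12 were called towards kidney (70.6%, against 11.0% of all genes). Towards liver there were 0, and 8 of the kidney calls were left after centring. The list median was 2.72, against 0.87 for all genes. MME, for neprilysin, stood at 404 FPKM in kidney and 0.0730 in liver, and ENPEP, for aminopeptidase A, at 391 and 2.92. The angiotensin-converting enzyme gene ACE (126 and 0.504) and the dipeptidase gene DPEP1 (169 and 0.0536) followed. ACY1, which removes acetyl groups from amino acids, was at 393 and 58.7. DPP4, another brush border peptidase, was the even member, at 129 and 126, and GCLC, which limits glutathione synthesis, was at 15.4 and 33.2. The model of ACY1 overlaps ABHD14A, RPL29.

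Amino acid carriers were likewise called mostly towards kidney, in 11 of 19 cases (57.9%, against 11.0% of all genes). Towards liver there were 2 (10.5%, against 3.83%). After centring the counts were 8 and 2. SLC6A18, a luminal carrier of neutral amino acids, stood at 308 FPKM in kidney and 0 in liver, and its relative SLC6A19 at 42.3 and 0.00703. CLTRN, the collectrin that brings these carriers to the membrane, stood at 258 and 17.9. The subunits of the cystine carrier that is defective in cystinuria, SLC3A1 (116 and 3.31) and SLC7A9 (14.6 and 0.267), were both called. On the basolateral side, SLC7A8 was at 110.5 and 1.23 and SLC7A7 at 126 and 17.5. The calls towards liver were SLC38A4 (152 in liver, 0.109 in kidney), a sodium-coupled neutral carrier, and SLC6A12 (30.6 and 3.40), a betaine carrier. The models of SLC3A1, SLC7A9 and SLC7A7 overlap neighbours, and 4 of the 23 listed carriers were under 1 FPKM in both organs.

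**Figure D3:**
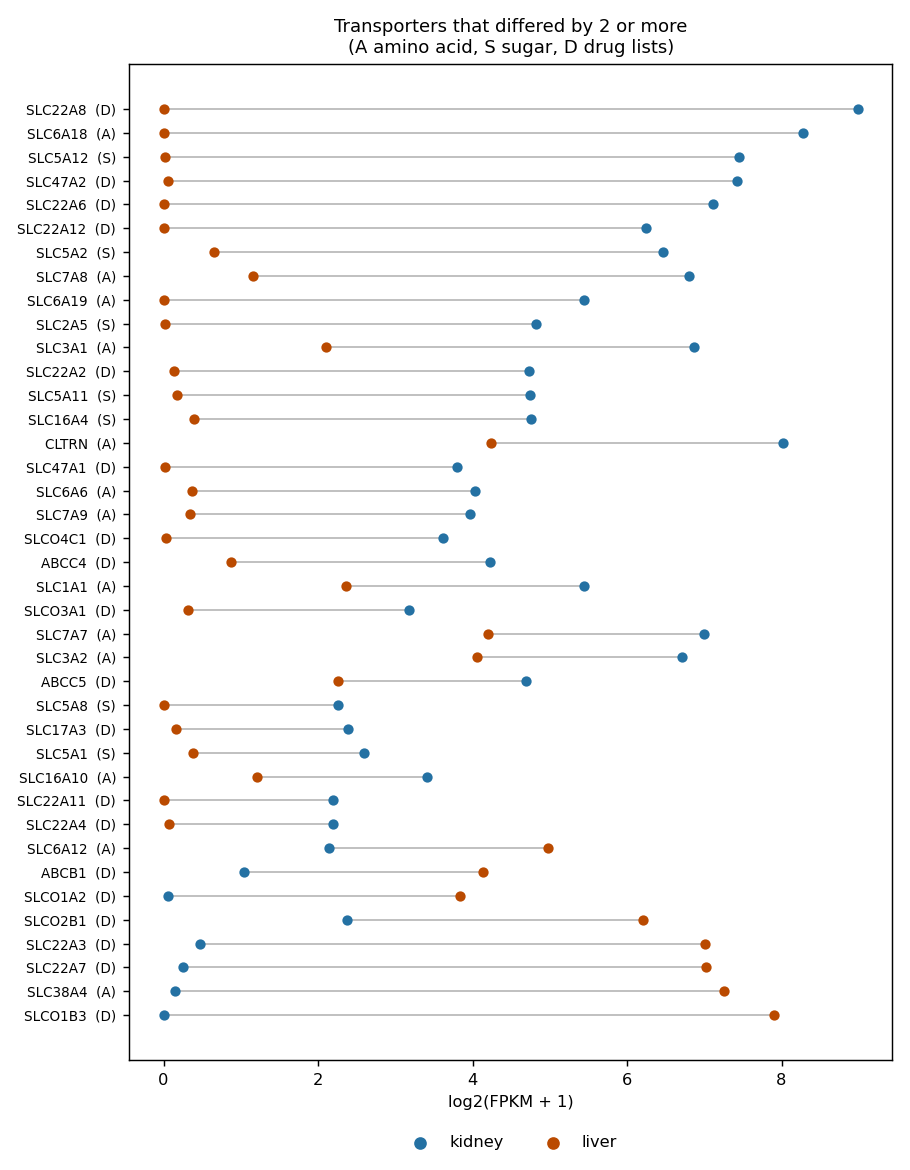
Level of each transporter with a difference of 2 or more, as log2(FPKM + 1), in kidney (blue) and liver (orange), 1 library each, ordered by difference. Carriers of the amino acid (A), sugar (S) and drug (D) lists are mixed along the kidney side, with SLC22A8 at the top, and 8 carriers lie on the liver side.

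Glucose production was transcribed in both organs at high levels. Among 8 genes, PCK1 (difference 2.14) and MDH1, the cytosolic malate dehydrogenase (227 FPKM in kidney, 46.5 in liver), were called towards kidney as deposited, and 0 were called after centring. The deposited share towards kidney was 25%, against 11.0% of all genes. G6PC1, which releases free glucose, was at 298 in kidney and 186 in liver, FBP1 at 216 and 99.5, and PC, the pyruvate carboxylase, at 316 and 212. PCK2, the mitochondrial carboxykinase, was at 330.5 and 283. The model of G6PC1 overlaps AARSD1 and that of PC overlaps LRFN4.

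Glycolysis had isoforms called in opposite directions. The list median was 1.13, close to the 0.87 of all genes, with 6 of 22 genes called towards kidney and 3 towards liver (2 and 3 after centring). As deposited, the shares were 27.3% and 13.6%, against 11.0% and 3.83% of all genes. PKLR, the liver and red cell pyruvate kinase, stood at 2.62 FPKM in kidney and 44.8 in liver, and PKM at 124 and 7.76. HK1, the hexokinase of most tissues, was called towards kidney (35.7 and 3.28). GCKR, for a regulatory protein of sugar metabolism, was called towards liver (40.8 in liver, 2.79 in kidney). Among genes of fructose 2,6-bisphosphate, the signal that sets the pace of glycolysis, PFKFB1 was called towards liver (8.996 in liver, 0.0810 in kidney), and PFKFB2 (7.87 in kidney, 0.431 in liver) and PFKFB3 (8.13 and 0.590) towards kidney. LDHB was at 341 and 151, and LDHA at 25.00 and 48.01. The models of PKLR, PKM, GCKR, PFKFB1 and PFKFB2 overlap other named genes.

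Enzymes of other sugars had few calls, in both directions. Of 14 fructose, sorbitol, galactose and inositol genes 2 were called towards kidney and 1 towards liver (2 and 2 after centring). Of 14 pentose phosphate and glucuronate genes the counts were 1 and 1 (1 and 1 after centring). The shares towards kidney were 14.3% and 7.14%, against 11.0% of all genes. Towards liver the share was 7.14% in each list, against 3.83%. MIOX, which cleaves inositol to glucuronate and is known as a kidney enzyme, stood at 330.5 FPKM in kidney and 6.38 in liver. CRYL1, for the dehydrogenase of gulonate, a later step of the same route, stood at 524 and 9.09. RGN, for regucalcin, a gluconolactonase, went the other way, at 447 in liver and 25.4 in kidney. AKR1B1, for the aldose reductase that makes sorbitol, was called towards kidney (26.7 and 1.46). KHK, which starts fructose breakdown, was present in both, at 94.4 in kidney and 145 in liver. The model of MIOX overlaps LMF2.

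Glycogen genes leaned to liver. GYS2, the liver glycogen synthase, stood at 32.5 FPKM in liver and 0 in kidney, and PPP1R3B, which targets a phosphatase to glycogen in liver, at 9.20 and 1.05. PYGL, the liver phosphorylase, was at 90.1 and 22.1, just short of a call, and UGP2, which makes UDP-glucose, at 144 and 30.4. Of 14 genes 3 were called towards liver (21.4%, against 3.83% of all genes) and 1 towards kidney (7.14%, against 11.0%). After centring these counts were 5 and 0. The kidney call was GYG1, the glycogenin primer (21.6 and 3.37). GYS1 was listed at 151 and 42.98, in a model that overlaps FTL, the gene with the highest value in kidney (5733 FPKM). PYGL, UGP2 and GYG1 have models that overlap another named gene.

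Sugar carriers were called towards kidney and not towards liver. SLC5A2, the sodium glucose carrier SGLT2 of the early proximal tubule, stood at 87.4 FPKM in kidney and 0.576 in liver, and SLC5A1 (SGLT1) at 5.07 and 0.301. SLC5A12, a sodium lactate carrier, was higher still in kidney (174 and 0.00897). SLC2A5, a fructose carrier, stood at 27.4 and 0.0135. SLC2A2, the glucose carrier of hepatocytes and of the basolateral tubule, was at 36.9 in liver and 8.67 in kidney, a difference of -1.97, just short of a call. Of 15 carriers 7 were called towards kidney and 0 towards liver as deposited, and 5 and 3 after centring. The deposited share towards kidney was 46.7%, against 11.0% of all genes. The model of SLC5A2 overlaps RUSF1.

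Mitochondrial genes had differences close to the median of all genes. The 26 genes of pyruvate entry and the citric acid cycle had a median of 1.03, and the 19 nuclear genes of the respiratory chain one of 0.93, with 0 of them called. PDHA1, a subunit of pyruvate dehydrogenase, had the largest difference (209 FPKM in kidney, 28.2 in liver), and SUCLG1 (201 and 222) was even. The model of PDHA1 overlaps MAP3K15.

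Drug metabolism divided by type of step: enzymes were called more often towards liver and transporters in both directions. Among 21 P450 and flavin monooxygenase genes, 7 were called towards liver (33.3%, against 3.83% of all genes). Towards kidney there were 3 (14.3%, against 11.0%). After centring the counts were 11 and 2. CYP2E1, which oxidises ethanol, stood at 1021 FPKM in liver and 0.00433 in kidney. CYP1A2, of caffeine breakdown, stood at 87.7 and 0.209, and CYP2A19 at 225 and 18.5. The gene listed as CYP2D6, whose span holds CYP2D25 in RefSeq, was at 913 in liver and 142 in kidney. The kidney calls were CYP27B1, which activates vitamin D (18.8 and 0.0645), CYP24A1, which inactivates it (29.2 and 0), and CYP1B1 (5.04 and 0.197). The flavin monooxygenase gene FMO1 was present in both organs (349 and 266). The model of FMO1 overlaps FMO2.

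Several pig P450 and conjugating genes had no model of their own, and the model that spans them was read instead, a choice made after the values were seen. A model on chromosome 3 that spans CYP3A22, CYP3A29 and CYP3A46 was at 1492 FPKM in liver and 4.60 in kidney. GSTA1, for a glutathione transferase, lay in a model at 752 and 2.09, and ADH1C, for an alcohol dehydrogenase, in one at 566 and 111. The larger of the models that cover UGT2B31 stood at 269 in liver and 0.172 in kidney. Other P450 models were shared: that of CYP2C33 was at 630.4 in kidney and 855 in liver, and that of CYP4A21 and CYP4A24 at 84.6 and 189.5. Each such value may draw on every gene within the model.

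Oxidation, reduction and hydrolysis outside the P450 family were called towards liver in 7 of 28 cases and towards kidney in 3 (11 and 1 after centring). The liver share was 25%, against 3.83% of all genes, and the kidney share 10.7%, near the 11.0% of all genes. ADH4 stood at 144 FPKM in liver and 0 in kidney, XDH, the xanthine dehydrogenase that makes uric acid, at 73.5 and 0, and AOX1, the aldehyde oxidase, at 149.7 and 5.60. Steroid hormones were handled in opposite senses: HSD11B1, which activates cortisone, was at 285 in liver and 3.07 in kidney, and HSD11B2, which inactivates cortisol, at 44.96 in kidney and 0.0482 in liver. MAOA, for a monoamine oxidase, was called towards kidney (91.7 and 14.9), and MAOB was even (112 and 102). DPYD and DPYS, for the consecutive opening steps of pyrimidine breakdown, went opposite ways, DPYD at 183 in kidney and 37.00 in liver and DPYS at 25.6 and 172. UPB1, the step after them, was at 202 and 239. HSD11B2 and DPYS also overlap other named genes in their models.

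Conjugation was called towards liver in 8 of 20 genes and towards kidney in 2, and among 9 glutathione transferases in 2 and 0 (after centring, 9 and 1, and 3 and 0). The kidney shares as deposited, 10% and 0%, were below the 11.0% of all genes. Those towards liver, 40% and 22.2%, were above 3.83%. UGT1A6, a glucuronosyltransferase, stood at 159 FPKM in liver and 17.9 in kidney, and NNMT, which methylates nicotinamide, at 41.2 and 0. The sulfotransferases split, with SULT2A1 at 33.98 in liver and 0.00992 in kidney and SULT1C2 at 23.6 in kidney and 1.32 in liver. Of the acyl-CoA synthetases for medium-chain acids, ACSM2B stood at 748 in kidney and 206 in liver, and ACSM3 at 25.98 and 11.97. ACSM4 (676 in liver, 133 in kidney) and ACSM5 (17.4 and 0.157) were called towards liver. UGT1A6 and ACSM3 lie in models that overlap a neighbour.

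Organic ion and ABC transporters were called towards kidney in 13 of 31 cases and towards liver in 6 (8 and 9 after centring). Before centring, the shares were 41.9% and 19.4%, against 11.0% and 3.83% of all genes. The basolateral anion carriers SLC22A8 (OAT3) and SLC22A6 (OAT1) stood at 506 and 138 FPKM in kidney and were listed at 0 in liver. SLC22A12 (URAT1), which recovers uric acid from the filtrate, stood at 74.7 and 0. The cation carrier SLC22A2 (OCT2) was at 25.6 and 0.0939, and the extrusion carriers SLC47A2 and SLC47A1 at 170.0 and 12.9 in kidney and under 1 in liver. ABCC2, a pump into bile and urine, was by contrast at 60.1 and 70.9. On the liver side, SLCO1B3, for a bile salt and drug uptake carrier, stood at 239 and 0 in kidney, and SLC22A7 (OAT2) at 129.5 and 0.188. SLC22A3 was listed at 128 in liver, but its model overlaps PLG, the plasminogen gene, which was at 1547 there. The model of SLC22A7 overlaps CRIP3.

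Genes of lipid export were called mostly towards liver. Of 28 lipoprotein genes 15 were called towards liver and 5 towards kidney (18 and 3 after centring), with a median of -3.22. Shares as deposited were 53.6% towards liver and 17.9% towards kidney, against 3.83% and 11.0% of all genes. APOB, the structural protein of very low density lipoprotein, stood at 320.1 FPKM in liver and 0.0121 in kidney, and MTTP, which loads it with lipid, at 112 and 5.15. APOC3 was at 12043 and 51.6, and APOE at 8863 and 6.14. LIPC, the hepatic lipase, was at 118 and 0.283. The kidney calls were LRP2, the endocytic receptor megalin (537 and 0.00897), SORT1, for sortilin (29.6 and 0.462), LPL, a lipase of other tissues (8.95 and 0.0741), APOD (4.51 and 0.223) and APOO (12.1 and 2.18). The model of LRP2 overlaps ABCB11, a liver gene, and the pair had opposite values. SORT1 and APOO have models that overlap another named gene.

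Bile acid genes were called towards liver in 13 of 21 cases and towards kidney in 1 (14 and 1 after centring). Before centring, this made 61.9% and 4.76%, against 3.83% and 11.0% of all genes. AKR1D1, a reductase of bile acid synthesis, stood at 193 FPKM in liver and 0.225 in kidney, and the export pump ABCB11 at 92.04 and 0.0227. CYP27A1, which starts the acidic pathway, was at 187 and 12.4. Sodium-coupled uptake was divided, with SLC10A1 at 113 in liver and 0.0606 in kidney and SLC10A2, the ileal and renal form, at 0 and 2.33. SLC51B, a subunit of the basolateral bile acid exporter, was the kidney call (52.6 and 3.18), while its partner SLC51A stood at 5.15 and 5.94. Models of ABCB11, SLC10A1, CYP27A1, SLC51A and SLC51B overlap other named genes.

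Cholesterol genes had calls towards liver and none towards kidney. 11 of 26 genes were called towards liver and 0 towards kidney, and 18 towards liver after centring, with a list median of -1.78. The deposited liver share was 42.3%, against 3.83% of all genes. MSMO1, a late demethylating enzyme, stood at 134 FPKM in liver and 9.22 in kidney, and MVK, the mevalonate kinase, at 107 and 9.20. SQLE, which oxidises squalene, was at 14.3 and 2.60, and INSIG1, a sterol sensor of the pathway, at 59.9 and 8.96. FDFT1, for squalene synthase, was at 118 in kidney and 63.4 in liver, in a model that overlaps CTSB. The model of MSMO1 overlaps KLHL2.

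Fatty acid synthesis and desaturation had calls in both directions. 8 of 36 genes were called towards liver (22.2%, against 3.83% of all genes) and 6 towards kidney (16.7%, against 11.0%). After centring the counts were 11 and 5. The desaturases FADS1 (284 FPKM in liver, 5.07 in kidney) and FADS2 (174 and 11.4) and the elongase ELOVL2 (25.8 and 0.0787), which make polyunsaturated fatty acids, were called towards liver. DGAT2, which makes triglyceride, was at 240.3 and 13.4, and THRSP, a lipogenic gene, at 87.2 and 0.0408. FASN was not called, at 30.03 in liver and 12.7 in kidney. On the kidney side were ELOVL7 (16.9 in kidney, 0.536 in liver), ACACB, the carboxylase that controls fatty acid entry into mitochondria (14.9 and 0.0756), and the glycerol kinase gene GK (119.6 and 13.5).

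Fatty acid oxidation had few calls, and ketone body genes had opposite ones. For mitochondrial and peroxisomal oxidation, the shares called towards kidney were 4.35% and 0%, against 11.0% of all genes. Towards liver they were 0% and 9.09%, against 3.83%. Of 23 mitochondrial oxidation genes 1 was called towards kidney, CPT1B (5.40 and 0.174 FPKM), and 0 towards liver, with ACADM at 334 in kidney and 216 in liver and CPT1A at 102 and 45.8. Among 22 peroxisomal genes, ACOT12 (16.4 in liver, 0.0796 in kidney) and AMACR (57.9 and 7.43), a racemase also used in bile acid synthesis, were called towards liver, while CAT, the catalase, was at 903 and 1022. BDH1, which interconverts the ketone bodies, was called towards liver (38.3 in liver, 3.96 in kidney). OXCT1, which lets tissues burn them, stood at 80.4 in kidney and 1.12 in liver. Fatty acid binding proteins were called in opposite directions, with FABP1 at 255 in liver and 0.0560 in kidney and FABP3 at 87.97 in kidney and 3.44 in liver, where the FABP3 model overlaps ZCCHC17. CPT1B and CAT also overlap other named genes in their models.

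The leading member often differed between the organs in the related gene pairs chosen here. The pairs were chosen with earlier results of these data known, so their counts give no rate for related genes in general. Of 40 pairs of related genes or consecutive steps 37 had both genes matched, and in 22 of them the gene with the higher level in kidney was not the one with the higher level in liver. Comparing genes within a library does not depend on a scaling factor between libraries, apart from the pseudocount. In 6 pairs, each gene differed by 2 or more in opposite directions. Among these were PKLR and PKM, FABP1 and FABP3, SLC22A7 and SLC22A6, HSD11B1 and HSD11B2, and SULT2A1 and SULT1C2. Some shifts were large although the leader stayed the same: PYGL exceeded PYGB by 1.88 in kidney and by 5.66 in liver on the log2(FPKM + 1) scale. Pairs with near equal members, such as ABCC6 and ABCC4 in kidney (17.6 and 17.8 FPKM), count on 1 side or the other by a margin that these libraries cannot resolve. The model of PYGB overlaps ABHD12.

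**Figure D4:**
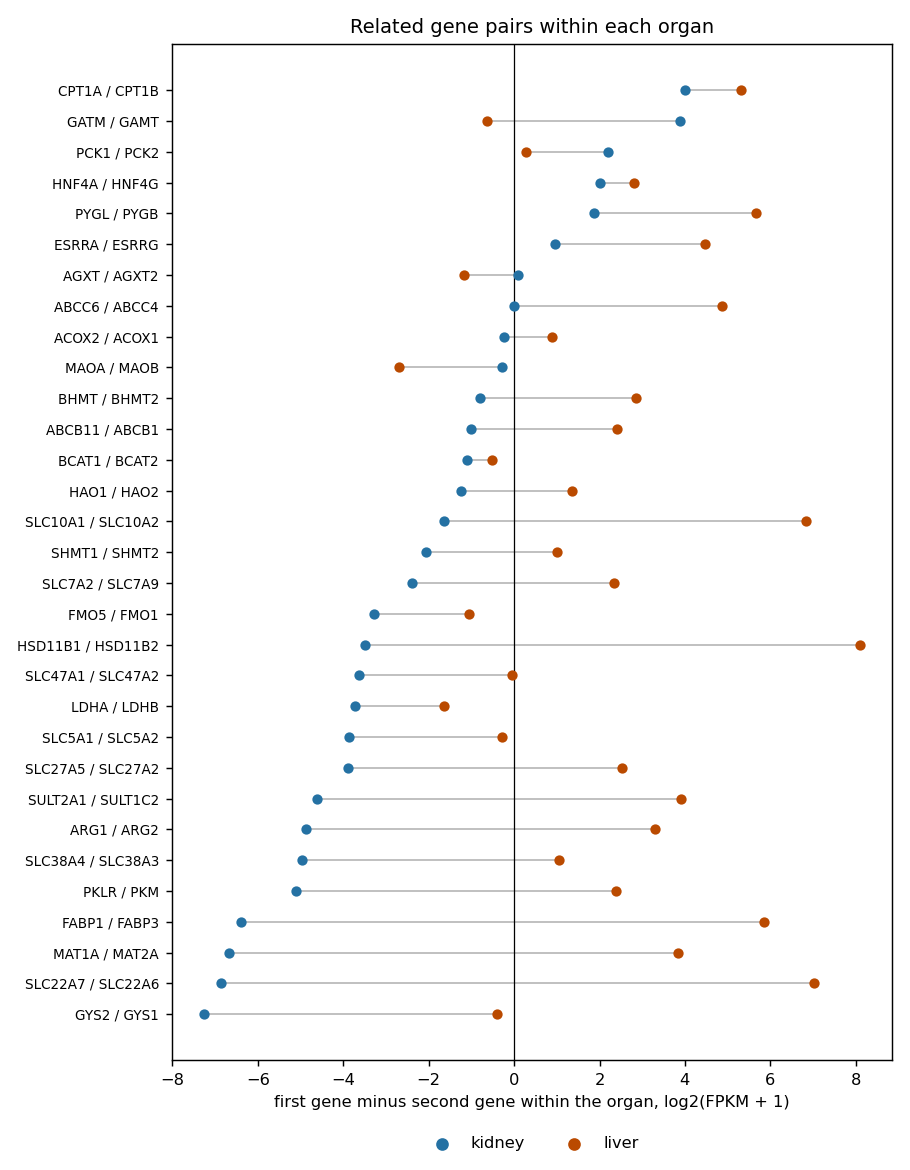
Difference between the first and the second gene of 31 of the 37 pairs within kidney (blue) and within liver (orange), in log2(FPKM + 1), 1 library per organ. Points on opposite sides of the line at 0 mark pairs led by a different gene in each organ, and SLC22A7 with SLC22A6 spans the range from -6.87 to 7.03.

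Regulators were called in both directions. 20 of 46 compared regulators were called towards kidney (43.5%, against 11.0% of all genes) and 8 towards liver (17.4%, against 3.83%). After centring the counts were 13 and 10. Only 20 of the 46 reached 1 FPKM in both organs, and the others passed the filter through 1 organ alone. PAX2, of kidney development, stood at 29.2 FPKM in kidney and 0.467 in liver, and VDR, the vitamin D receptor, at 18.7 and 0.0189. The body-position gene HOXA10 was at 26.5 in kidney and 0 in liver. Towards liver were NR0B2, the bile acid-induced repressor SHP (13.5 and 0.0821), ONECUT1 (7.75 and 0), MLXIPL, the carbohydrate sensor ChREBP (37.2 and 4.89), and NR1I3, the xenobiotic sensor CAR (14.97 and 2.33). Present in both were HNF4A (94.3 in kidney, 50.03 in liver), PPARA (25.7 and 29.6), which drives fatty acid oxidation genes, and NR1I2, the xenobiotic sensor PXR (12.2 and 16.6). CEBPA, a hepatocyte factor, was listed at 0 in both libraries and in each of the 7 other tissues. Whether its model could be quantified was not tested, so the 0 is not read as absence. NR1I3 and NR1I2 lie in models that overlap a neighbour.

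Some metabolic genes were abundant and level in both organs. Of the 579 compared list members 54 reached 100 FPKM in both libraries, and 24 of these differed by less than 0.5 as deposited. They included CAT, CYB5A (272 in kidney, 327 in liver), the beta oxidation enzyme EHHADH (131 and 138), GLUD1, GATM, PCK2 and FMO1. A difference under 0.5 lies below the median of all genes by construction, so level here means level as deposited. The model of EHHADH overlaps MAP3K13.

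The other 7 single tissues, heart, spleen, lung, psoas major, longissimus dorsi, subcutaneous adipose and ovary, were not used to make the calls. Deposited values of kidney and liver were set against theirs. Of the 1376 genes called towards kidney, kidney was the highest of the 9 tissues in 730 (53.1%). Of the 478 called towards liver, liver was the highest in 389 (81.4%). Among the 1376, 667 were at least 1 above the median of the other tissues in kidney without being 1 below it in liver. In 442, liver was at least 1 below that median and kidney was not 1 above it. Among the liver calls these numbers were 421 and 15. The themes differed in how often the called organ was the highest of the 9 tissues. In amino acid genes called towards kidney, kidney was the highest tissue in 30 of 37, and in drug genes in 17 of 21. In lipid genes called towards kidney it was the highest in 8 of 23, and in sugar genes in 11 of 23. For liver calls, liver was the highest in 19 of 19 amino acid and 28 of 30 drug genes. The same held in 47 of 53 lipid and 4 of 7 sugar genes.

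Several kidney calls of the sugar and lipid themes were genes with low values in liver and higher values in other tissues than in kidney. OXCT1 stood at 221 FPKM in adipose tissue and 165 in heart against 80.4 in kidney and 1.12 in liver. FABP3 stood at 288 in heart, and FABP5, another fatty acid binding protein, at 209 in adipose tissue, 49.2 in kidney and 1.85 in liver. PKM reached 1566 in longissimus dorsi, against 124 in kidney. By contrast SLC22A8, SLC22A6, SLC22A12 and SLC6A18 were at most 0.0682 in each of the other tissues. On the liver side, DGAT2 and THRSP were higher in adipose tissue (333 and 272) than in liver. PFKFB1 was higher in longissimus dorsi (14.2) and psoas major (11.02) than in liver (8.996).

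**Figure D5:**
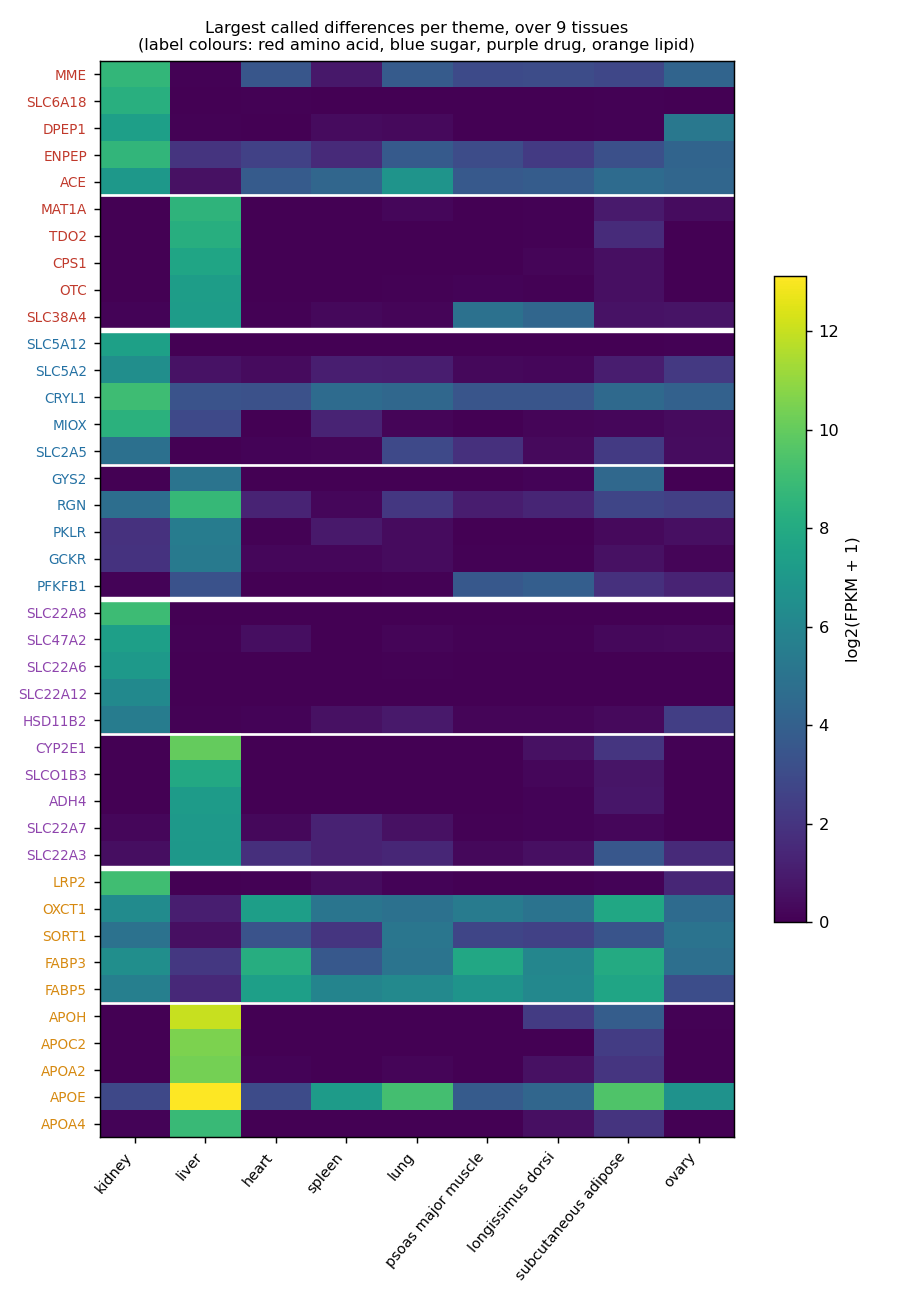
Level, as log2(FPKM + 1) by colour, of 40 genes in kidney, liver and 7 other tissues, 1 library each, with the 5 largest called differences per theme towards kidney and then towards liver. Most rows are bright in 1 organ alone, but OXCT1, SORT1, FABP3 and FABP5 are dark in liver and bright in several tissues.

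Markers of other cell types moved with some of these differences, and their part in the metabolic results was not tested. Of 13 macrophage and Kupffer cell genes 9 were called towards liver (69.2%, against 3.83% of all genes) and 0 towards kidney. Their summed level was 628 FPKM in liver and 60.2 in kidney, with TIMD4 (19.7), CLEC4F (16.2) and MARCO (2.09) present in liver and at 0 in kidney. Of 12 endothelial genes 4 were called towards liver, among them the sinusoidal gene STAB2 (20.3 and 0.0577), and 1 towards kidney. These shares were 33.3% and 8.33%, against 3.83% and 11.0% of all genes. Fibroblast genes summed to 509.8 FPKM in kidney and 141 in liver. Of 9 compared, 3 were called towards kidney and 1 towards liver (1 and 1 after centring). Of 5 compared bile duct genes, which tubules share in part, 4 were called towards kidney (80%, against 11.0% of all genes). No lymphocyte gene was called among 6 compared, and HBB, a haemoglobin gene of red cells, was at 132 in kidney and 151 in liver. In the kidney library, the median of the plasma protein genes of hepatocytes was 1.88 FPKM, with ALB at 0.146. In the liver library, the median of the proximal tubule genes was 0.0491.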

How the data were processed

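Total RNA was sequenced from 1 kidney and 1 liver library of Northeast Min pigs, within a series of 10 libraries. The deposited table holds 1 value per gene and library, read here as FPKM because the authors' table names no unit. TopHat2 2.1.0, StringTie 1.2.2 and Sscrofa11.1 appear in the submitters' processing notes. For their roles, the annotation release, strandedness and filters, the sources used here give nothing. Fragment counts were not used, so depth is unknown and no interval was computed. Genes were named by Ensembl ID (14857) or by reciprocal overlap of at least 0.5 with a RefSeq gene (1714), which covered 64.0% of models. Where both routes gave a name, 95.1% were equal. Of 877 listed genes 809 had a model. Differences are log2(FPKM + 1), kidney minus liver, over genes at 1 FPKM or more in either organ, called at 2 either way. Genes were named in the text if they belonged to a list or a pair, were among the largest differences or highest levels, or were level and abundant in both organs. Members, lists and pairs were chosen with earlier results of these data known. Alternatives changed the pseudocount, filter, threshold, scaling and overlapping models. The difference and the call were tested on simulated data with no values under 1 FPKM and no shift of the median. That test does not cover those cases. Python 3.11.15, numpy 2.4.6, pandas 2.3.3 and matplotlib 3.10.9 were used. Some list members are not reported here.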

Additional observations from a re-analysis of the deposited data

How the results depend on the processing

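The number of calls depended on the scaling, the pseudocount and the threshold. No called list gene or other named gene changed sign under the 12 alternatives, but a difference of 2 leaves little room for that, while 132 uncalled genes had another sign after centring. With a pseudocount of 0.1, 2794 genes were called towards kidney, and 11 sugar genes towards liver. With a pseudocount of 5, 413 genes were called towards kidney and 314 towards liver, with 14 sugar, 11 drug and 8 lipid genes towards kidney. At a threshold of 1, 5362 genes were called towards kidney and 949 towards liver, with 33 amino acid genes towards liver, 52 and 16 sugar genes towards kidney and liver, and 46 lipid genes towards kidney. At a threshold of 3 the counts were 476 and 305, with 18 amino acid, 10 sugar, 12 drug and 13 lipid genes towards kidney. Scaling by the median of ratios gave 695 and 746 genes, 19 amino acid, 13 drug and 14 lipid genes towards kidney, and 11 and 13 sugar genes. Quantile scaling gave 675 genes towards kidney, 15 and 11 sugar genes, and 14 lipid genes towards kidney. Centring on the median gave 540 and 856 genes, 20 and 29 amino acid genes, 10 and 13 sugar genes, and 12 drug and 14 lipid genes towards kidney. Without overlapping gene models, 13 and 3 sugar genes and 15 lipid genes towards kidney were called. The causes of these shifts were not tested beyond what each alternative changes by construction. No paired analysis was possible because each organ has 1 library. Depth is unknown, and low values could not be given a counting error.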

Other observations

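The largest differences and highest levels over all genes included genes outside the metabolic lists. UMOD had the largest difference towards kidney (11.22) and ALB the largest towards liver (-14.70), both on the log2(FPKM + 1) scale. GPX3, for the plasma glutathione peroxidase that is made in the proximal tubule, stood at 3593 FPKM in kidney and 26.2 in liver. The sodium phosphate carrier gene SLC34A1 stood at 526 in kidney and 0 in liver, and CDH16, for kidney-specific cadherin, at 378 and 0. In liver the highest genes after ALB and APOC3 included TF, for transferrin, at 9489 FPKM against 151 in kidney. FTL, for the ferritin light chain, was the highest gene of the kidney library, at 5733 FPKM against 2168 in liver, and its model overlaps GYS1.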
